A study of Mus musculus with 4 samples.

Results

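The Dlx and Msx genes encode homeodomain transcription factors of the face, skeleton and surface epithelium, and 8 of them (Dlx1, Dlx2, Dlx3, Dlx4, Dlx5, Dlx6, Msx1 and Msx2) are described here in the embryonic mouse nose. They were taken by symbol from the 32285 features of the count matrices. All 8 were present as a single row each and all 8 had transcripts in every library. Cells of the entire nose, taken from mice at embryonic day 14.5, were freed with papain, frozen and profiled by droplet sequencing of the poly-adenylated end of each transcript. There are 2 control and 2 mutant libraries by the titles, named control 1, control 2, mutant 1 and mutant 2. Mutants carry the Sox10-cre transgene, expressed in the neural crest and its glia, and both alleles of Taz (Wwtr1) floxed. Of Yap1, the series design gives them 1 floxed and 1 wild-type allele, so that a working copy of Yap1 remains even where Cre has acted. Surface and olfactory epithelium come largely from ectoderm other than the neural crest. The descriptions of the controls disagree: their labels name C57Bl/6J, whereas the series design describes animals with both genes floxed and no Cre. The labels do not say whether the libraries of a group came from separate litters, so p-values measure only the spread between these libraries.

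After filtering, 13739 cells were kept, between 2474 and 4195 in each library, with median depths of 5282 to 8549 UMIs (unique molecular identifiers, each marking 1 captured molecule). Pairs of libraries shared 3 to 5 cell barcodes. Cells were sorted into classes by counting marker genes with at least 1 UMI, none of them a Dlx or Msx gene. This gave 8505 mesenchyme, 1712 bone, 1216 epithelium, 265 cartilage, 262 macrophage, 173 endothelial, 151 mural, 111 neuron, 106 glia and 70 muscle cells. Of the rest, 332 cells passed gates of more than 1 class and were left out, and 825 passed none, at a median depth of 2614 UMIs. Cells that passed the gates of epithelium and neuron and no other were not among these 332 and were counted as neurons. The 10 mesenchyme markers were all detected in the mesenchyme of every library, the 10 bone markers in bone and the 11 epithelial markers in epithelium. Yap1 over all kept cells was at 65.0 and 65.2 CPM (the UMIs of a gene scaled to the total UMIs of the same cells) in the controls and at 56.4 and 56.0 in the mutants. Wwtr1 overlapped between the groups, at 118 and 145 against 123 and 132 CPM. Reads from the transcript end are counted whether or not a floxed exon was removed, so these values do not measure recombination.

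As background, Dlx genes lie in convergent pairs in the genome, and the members of a pair share enhancers. In the face, Dlx1 and Dlx2 are used along the whole upper and lower jaw, Dlx5 and Dlx6 act downstream of endothelin to pattern the lower jaw, and Dlx3, Dlx5 and Dlx6 also act in osteoblasts. Msx1 and Msx2 are targets of BMP signalling in mesenchyme, where they take part in growth of the palate, teeth and skull, and bind as repressors to sites like those bound by Dlx proteins.

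The pairs were recovered in the gene annotation (GENCODE M21, GRCm38). Dlx1 (chromosome 2, 71528113 to 71533981, plus strand) and Dlx2 (71543408 to 71546754, minus strand) have tail ends 9.43 kb apart. Dlx6 (chromosome 6, 6863334 to 6868568, plus strand) and Dlx5 (6877805 to 6882085, minus strand) are 9.24 kb apart. Dlx3 (chromosome 11, 95120119 to 95125296, plus strand) and Dlx4 (95140447 to 95146263, minus strand) are 15.15 kb apart. Msx1 lies alone on chromosome 5 (37820485 to 37824583, minus strand) and Msx2 on chromosome 13 (53466884 to 53473074, minus strand). Each pair has an antisense RNA over 1 of its genes: Dlx1as overlaps Dlx1 by 5.87 kb, Dlx6os1 overlaps Dlx6 by 5.24 kb and Dlx4os overlaps Dlx4 by 1.21 kb. Whether counting used strand is not given in the sources used here, so it is not known how well reads of these overlapping genes were told apart. The other mouse Msx gene, Msx3, had 4 UMIs in all cells together.

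Promoters are shown for Dlx2 and Msx1, the 2 of the 8 genes with an available window that overlaps no annotated UTR. They are the 250 bases before the RefSeq start (GRCm38.p6), 5′ to 3′ on the gene's own strand, at chr2:71546755-71547004 (minus strand) for Dlx2 and chr5:37824586-37824835 (minus strand) for Msx1. Capitals mark matches, on either strand, to GGCGCC or to CCAAT, the box bound by the NF-Y factor.
Dlx2: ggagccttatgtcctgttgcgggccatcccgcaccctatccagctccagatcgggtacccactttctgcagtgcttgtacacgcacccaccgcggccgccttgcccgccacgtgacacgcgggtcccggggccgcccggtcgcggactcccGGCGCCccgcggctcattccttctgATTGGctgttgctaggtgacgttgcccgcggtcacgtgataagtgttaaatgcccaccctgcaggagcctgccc
Msx1: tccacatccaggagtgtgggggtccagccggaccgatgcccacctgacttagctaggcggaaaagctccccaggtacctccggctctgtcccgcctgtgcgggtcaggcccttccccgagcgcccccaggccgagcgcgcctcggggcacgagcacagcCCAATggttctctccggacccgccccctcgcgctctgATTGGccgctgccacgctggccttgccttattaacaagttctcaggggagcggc
Both windows held CCAAT, with 1 match in Dlx2 and 2 in Msx1. Of 32851 promoter windows of this length, 33.85% held CCAAT and 9.59% held GGCGCC. Neither window held TATAAA (12.37% of all windows), nor TAATT, the core letters bound by many homeodomains (25.03% of all windows). CCAAT was added to the search after the sequences had been seen. RefSeq windows were found for 4 of the 8 genes. Those of Dlx1 and Msx2 overlap annotated UTRs and are not shown: Dlx1 held none of the 4 motifs, and Msx2 held 3 matches to TAATT and 1 to CCAAT.

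Over the classes, the 8 genes are described in 4 groups. Msx1 was mesenchymal and skeletal, and Msx2 was skeletal, with a higher mean in epithelium (12.9 CPM) than in mesenchyme (7.53 CPM). Dlx5 and Dlx6 were high in bone and neurons, and Dlx5 was also found in epithelium (mean 30.4 CPM). Dlx3 and Dlx4 were found in bone and epithelium, and Dlx1 and Dlx2 were low in most classes and highest in glia. Each transcript is counted once whatever its length, so that CPM values may be set side by side between genes. Msx1 was the most abundant of the 8, with 7551 UMIs in all, followed by Dlx5 with 2129 and Msx2 with 1089. Dlx6, Dlx3, Dlx2 and Dlx1 had 494, 486, 460 and 301 UMIs, and Dlx4 had 94.

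**Figure D1:**
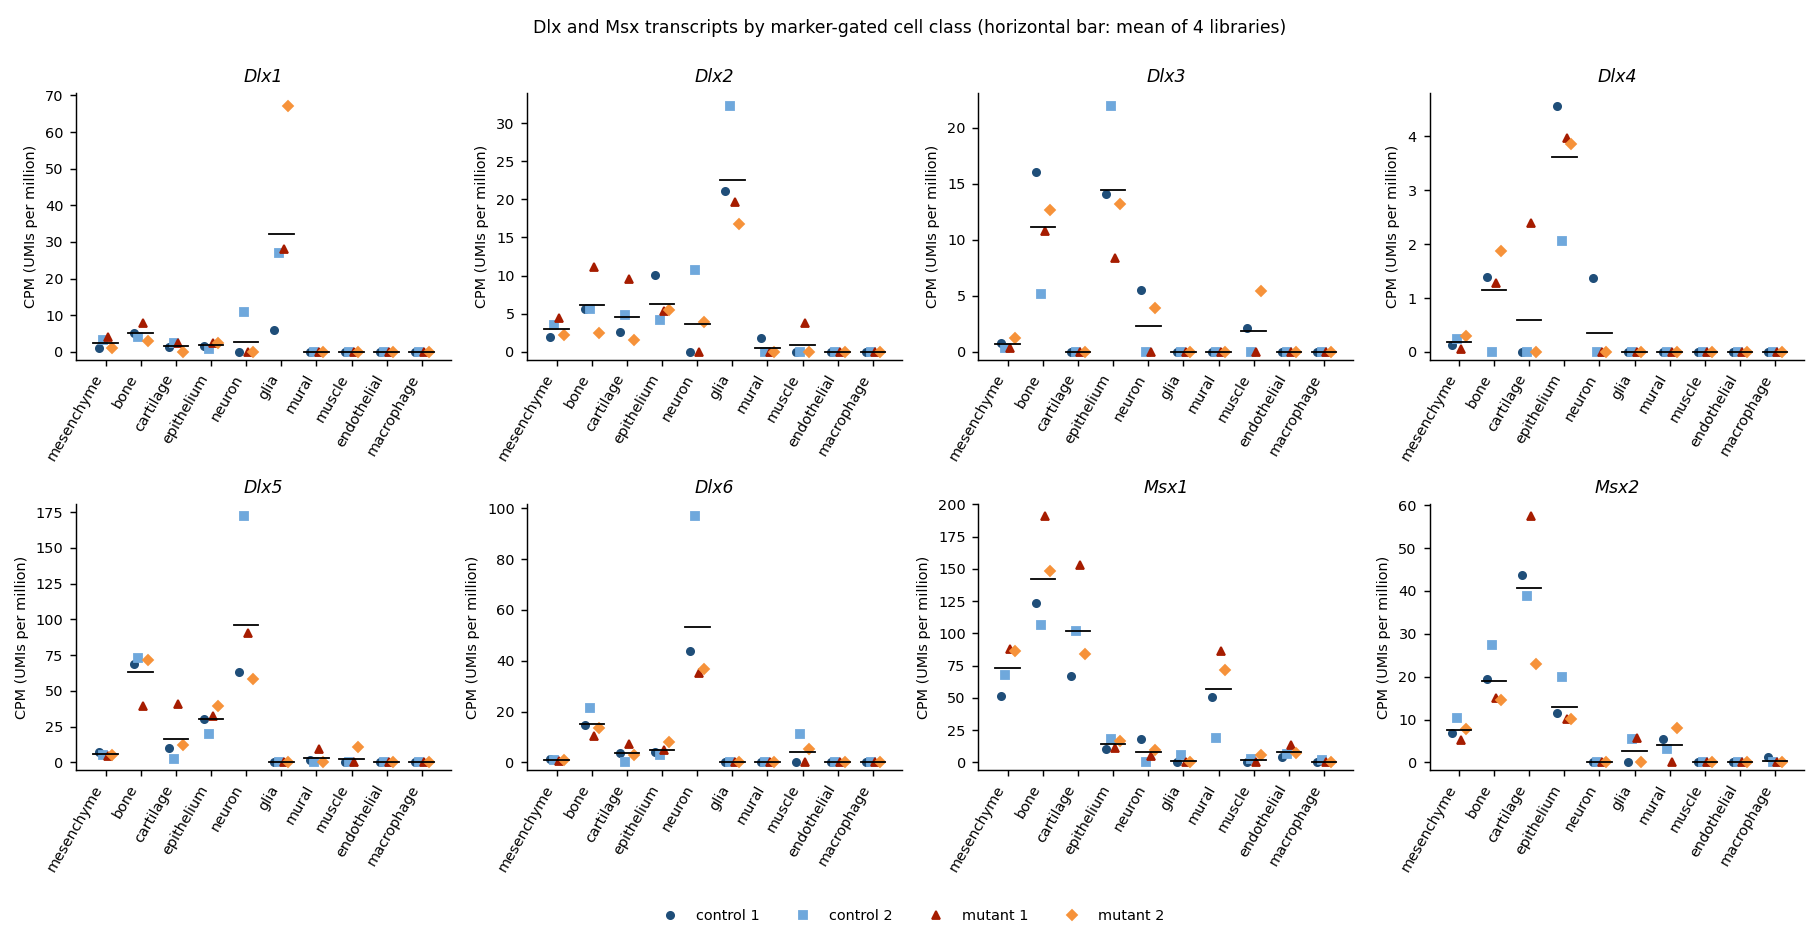
Level of each gene (CPM, linear axis from 0) in 10 marker-gated cell classes; each point is 1 library, summed over its cells of that class, and the bar is the mean of 4 libraries. Msx1 is highest in bone, Dlx5 and Dlx6 in neurons and then bone, Dlx1 in glia, and all Dlx genes are at 0 in macrophage and endothelial cells.

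The 6 Dlx genes had no UMI in 262 macrophages, which allows a share of up to 1.15% of cells, and none in 173 endothelial cells, which allows up to 1.73%. These limits are for cells with a UMI, not for cells that express a gene at a level too low to be caught. Macrophages also had 1 UMI of Msx1 and 1 of Msx2. Their median depths were 8806 and 9790 UMIs, and RNA free in the suspension would reach these cells as it does the others. Msx1 in endothelial cells had 19 UMIs, a mean of 7.80 CPM.

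Msx1, which keeps facial mesenchyme proliferating, had 51.3 and 67.7 CPM in control mesenchyme and 87.7 and 86.1 CPM in mutant mesenchyme. Control bone had 124 and 106 CPM and mutant bone 191 and 148 CPM. Bone was higher than mesenchyme within each of the 4 libraries. Cartilage held it at 66.8, 102, 153 and 84.0 CPM in control 1, control 2, mutant 1 and mutant 2, which overlaps both. Mural cells, the contractile cells around vessels, ranged from 19.0 to 86.2 CPM. Epithelium was lowest of these, at 10.6 to 18.5 CPM. Epithelial cells held 13.6% of all UMIs but 2.60% of those of Msx1.

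Msx2, which acts in skull growth and in the skin, was highest in cartilage, at 43.7 and 38.8 CPM in control and 57.5 and 22.9 CPM in mutant libraries. Cartilage therefore lay above bone in all 4 libraries (19.4, 27.5, 14.9 and 14.5 CPM) and far above mesenchyme (6.88, 10.4, 5.13 and 7.74 CPM). Cartilage rests on 43 to 88 cells and 15 to 34 UMIs of Msx2 in a library and was not tested. In epithelium Msx2 was at 11.5, 19.9, 10.2 and 10.2 CPM. Msx2 had no UMI in neurons.

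Dlx5, a regulator of osteoblast genes, was at 4.45 to 7.19 CPM in mesenchyme and at 68.7, 73.1, 39.4 and 71.8 CPM in bone. Mutant 1 was the low library in bone. Bone cells held 13.9% of all UMIs and 45.6% of those of Dlx5. Dlx6, its genomic partner, was at 0.68 to 1.52 CPM in mesenchyme and at 14.8, 21.4, 10.6 and 13.4 CPM in bone. Neurons had more of both than bone as a mean: Dlx5 was at 63.0, 172, 90.6 and 58.3 CPM and Dlx6 at 43.8, 96.9, 35.2 and 36.9 CPM. For Dlx5 the neuron and bone values overlapped, and for Dlx6 every neuron value was above every bone value. Control 2 had 10 neurons, and its values rest on 16 and 9 UMIs. Cells that passed both the epithelium and the neuron gate were counted as neurons, so the class can hold epithelial markers by its definition. All 11 epithelial markers were detected in it in control 1 and mutant 2, 9 in mutant 1 and 5 in control 2. Their summed level there was 2112, 409.1, 2047 and 2198 CPM in control 1, control 2, mutant 1 and mutant 2, against 4795 to 4965 CPM in epithelium, and that of the 7 neuron markers was 3261, 9518, 5871 and 3280 CPM. The part of epithelial cells in the Dlx5 and Dlx6 levels of this class was not tested.

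Dlx3, which drives epidermal and enamel differentiation and is also an osteoblast factor, was at 0.33 to 1.22 CPM in mesenchyme. In bone it reached 16.1, 5.12, 10.8 and 12.6 CPM and in epithelium 14.1, 22.0, 8.40 and 13.2 CPM, so that bone and epithelium overlapped. Dlx4 was the rarest, with 60 of its 94 UMIs in epithelium, at 4.57, 2.06, 3.98 and 3.86 CPM there. In bone it had 8, 0, 5 and 7 UMIs.

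Dlx1 and Dlx2 were low in mesenchyme, at 1.00 to 4.01 and 1.89 to 4.45 CPM, with control 2 and mutant 1 the high libraries for both. In bone Dlx1 was at 5.23, 4.19, 7.98 and 2.96 CPM and Dlx2 at 5.58, 5.59, 11.1 and 2.42 CPM. In epithelium Dlx2 was at 10.1, 4.12, 5.30 and 5.51 CPM, and Dlx1 at 0.69 to 2.48 CPM on 30 UMIs. Glia held 0.893% of all UMIs but 8.31% of those of Dlx1 and 4.78% of those of Dlx2. Their levels there were 6.04, 26.9, 28.1 and 67.2 CPM for Dlx1, on 2, 5, 10 and 8 UMIs, and 21.1, 32.3, 19.7 and 16.8 CPM for Dlx2.

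The classes were then compared within libraries, with the library as a term and all genes in 1 fit (edgeR's quasi-likelihood test on UMI sums, Benjamini-Hochberg adjusted over all genes tested, called under 0.05). All 8 genes were called higher in bone than in mesenchyme, where 12.3% of the 15024 genes tested were called higher and 23.8% were called in either direction. The differences were largest for Dlx3, at a log2 difference of 4.12 ± 0.27 (SE, 4 libraries, edgeR adjusted p = 2.28e-07), Dlx6, at 3.89 ± 0.22 (8.43e-08), and Dlx5, at 3.53 ± 0.12 (5.13e-10). Dlx4 differed by 2.82 ± 0.68 (0.00876), Msx2 by 1.41 ± 0.14 (7.61e-06), Dlx1 by 1.35 ± 0.30 (0.00551), Dlx2 by 1.12 ± 0.25 (0.00502) and Msx1 by 1.04 ± 0.085 (1.79e-06). The bone gate was made from other osteogenic genes, of which Runx2, Sp7 and Ibsp are known to act with or after Dlx5. Without control 1, the calls of Dlx1, Dlx2 and Dlx4 were lost, with edgeR adjusted p of 0.0513, 0.0522 and 0.0650. Dlx4 was also lost without mutant 2, at 0.05, and Dlx1 with the controls alone, at 0.0580.

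Against mesenchyme, epithelium had 6 of the 8 genes called higher and 1 lower, where 30.4% of 15945 genes were called higher, 31.2% lower and 61.5% in either direction (65.1% had an unadjusted p under 0.05). Dlx4 and Dlx3 had the largest log2 differences, at 4.35 ± 0.51 (SE, 4 libraries, edgeR adjusted p = 3.84e-05) and 4.31 ± 0.35 (2.52e-06). Dlx5 differed by 2.46 ± 0.18 (1.27e-06), Dlx6 by 2.26 ± 0.39 (6.37e-04), Dlx2 by 1.16 ± 0.37 (0.0198) and Msx2 by 0.75 ± 0.16 (0.00242). Msx1 was the gene called lower, at -2.45 ± 0.14 (1.51e-07), opposite in sign to Msx2. Dlx1 was not called, at -0.05 ± 0.47 (0.934). The call of Dlx2 rested on control 1 and mutant 2: the edgeR adjusted p was 0.174 without the first and 0.0801 without the second, and 0.0624 by DESeq2. Dlx6 was not called in the controls alone (0.0754). The antisense RNA Dlx6os1 was called higher in bone (2.88 ± 0.24, 2.15e-06) and epithelium (3.13 ± 0.29, 6.14e-06), as was Dlx4os (2.11 ± 0.57, 0.0161, and 3.76 ± 0.46, 5.09e-05). Dlx1as was called in neither, with 0.41 ± 0.36 (0.483) in bone and -1.25 ± 0.62 (0.102) in epithelium.

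**Figure D2:**
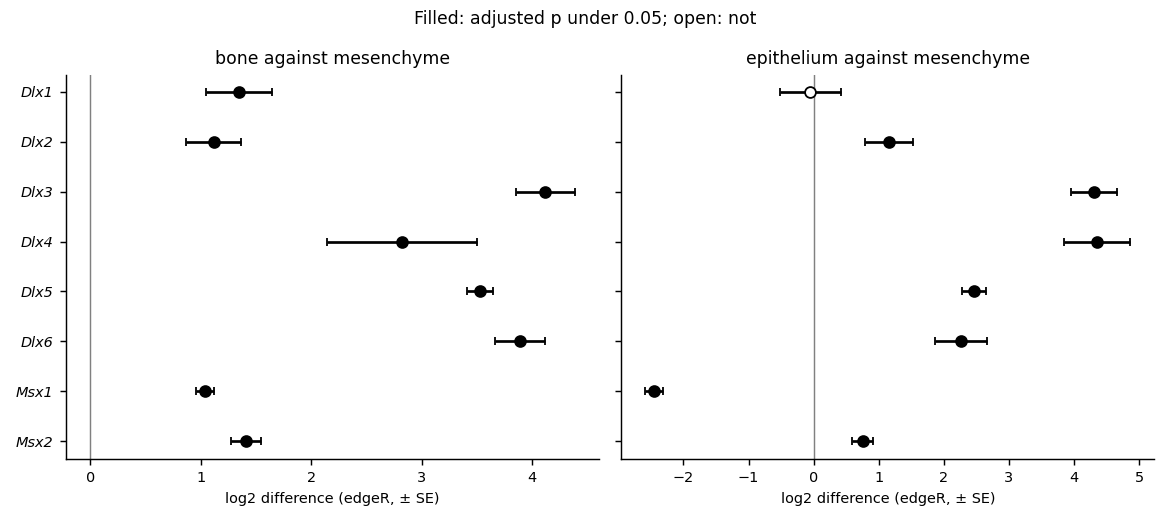
Log2 difference (edgeR, bars are SE, 4 libraries with the library as a term) of each gene in bone and in epithelium against mesenchyme. All 8 are to the right of 0 in bone, whereas in epithelium Msx1 is at -2.45 and Dlx1, the open symbol, is at -0.05.

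Within bone, cells with Sp7 or Ibsp (osteoblasts, 885 cells) were set beside cells with Runx2 and Alpl but neither of these (preosteoblasts, 827 cells). These divisions were set after the data were seen and are described without a test. Dlx3 had 180 of its 192 bone UMIs in osteoblasts, at 23.6, 9.37, 20.4 and 20.7 CPM against 1.99, 0, 1.52 and 2.97 CPM in preosteoblasts. The values did not overlap. Dlx5 was at 76.1, 112, 57.0 and 95.4 CPM in osteoblasts and at 55.2, 26.7, 22.3 and 43.3 CPM in preosteoblasts, higher in the former in all 4 libraries. Msx1 was higher in osteoblasts in 2 libraries and lower in 2, at 105, 112, 195 and 147 CPM against 159, 98.7, 187 and 149.5 CPM. Dlx6 was higher in osteoblasts in 3 of 4 libraries, the exception being mutant 2 at 12.8 against 14.2 CPM.

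Within epithelium, Dlx2 was highest in basal keratinocytes, the dividing layer of the skin, at 19.9, 7.94, 10.7 and 10.6 CPM. It had no UMI in 108 olfactory epithelial cells, which allows a share of up to 2.78% of cells. Dlx5 ran the other way, at 16.2 to 19.2 CPM in basal keratinocytes, 25.3 to 73.5 CPM in the differentiating suprabasal keratinocytes and 38.2 to 57.5 CPM in olfactory epithelium. Dlx3 was found in all 3, at means of 17.3, 10.0 and 17.2 CPM. Msx2 was at 12.4 to 20.5 CPM in basal keratinocytes and on only 4 UMIs in olfactory epithelium. Olfactory epithelium had 8 cells in control 2, so its levels in that library rest on few UMIs. Respiratory epithelium had 1 cell in control 2 and is not described.

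**Figure D3:**
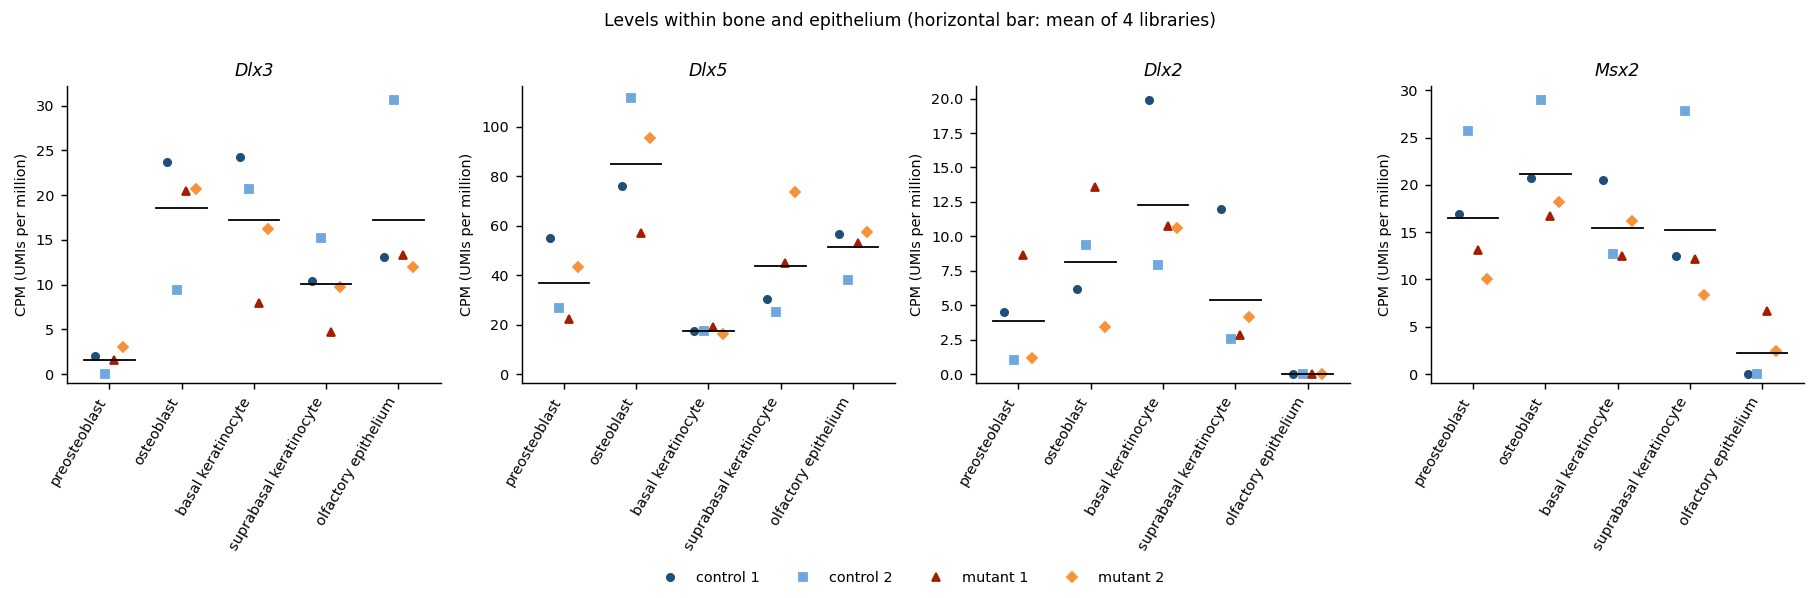
Level (CPM, linear axis) of Dlx3, Dlx5, Dlx2 and Msx2 in the subdivisions of bone and epithelium; points are libraries and bars their mean. Dlx3 in osteoblasts lies above preosteoblasts in every library, and Dlx2 is at 0 in olfactory epithelium in all 4, with 8 such cells in control 2.

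Shares of cells with a UMI were compared after thinning each cell to 2000 UMIs, which left out 32 to 53 mesenchyme, 1 to 4 bone and 0 to 12 epithelial cells in a library. Over the libraries together, Msx1 was seen in 10.9% of thinned mesenchyme cells, 22.4% of bone cells and 1.67% of epithelial cells. Dlx5 was seen in 0.985%, 9.81% and 6.02% of them. In single libraries, Msx1 in mesenchyme was at 8.60% (exact 95% binomial interval 7.49 to 9.82), 9.93% (8.54 to 11.5), 12.8% (11.3 to 14.4) and 12.2% (10.9 to 13.5), in the order control 1, control 2, mutant 1 and mutant 2. Without thinning these shares were 16.2%, 20.9%, 28.1% and 21.5%. The intervals cover counting error alone. Dlx1 and Dlx2 were in 0.432% and 0.673% of thinned mesenchyme cells. These are 36 and 56 of 8326 cells, and no change is read from such small counts.

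Genes of a pair were often found in the same cells. In mesenchyme, Dlx2 was detected in 31 of 102 cells with Dlx1 (30.4%) and in 1.12% of the others, at median depths of 7481 and 6254 UMIs. This held in each library, at 40.0%, 30.8%, 29.2% and 23.1% of cells with Dlx1 against 0.679%, 1.50%, 2.02% and 0.629% of cells without. Dlx6 was in 9.61% of mesenchyme cells with Dlx5 and 0.387% of those without, and in bone in 23.4% against 4.70%. Dlx4 was in 13.0% of epithelial cells with Dlx3 and 3.18% of those without. In mutant 2, however, the shares of Dlx4 were 2.56% and 3.05%. In mesenchyme Dlx4 was in 2 of 32 cells with Dlx3 (6.25%) and 0.094% of those without, with no such cell in control 1, control 2 or mutant 1. In bone it was in 4 of 52 cells with Dlx3 in control 1, 0 of 7 in control 2 and 0 of 23 in mutant 1. For the other pairs, libraries with no cell holding both genes included mutant 2 for Dlx1 and Dlx2 in bone (0 of 10 cells with Dlx1). Another was control 2 for Dlx5 and Dlx6 in epithelium (0 of 24 cells with Dlx5). Depth differed there as well, at medians of 12318 and 9311 UMIs over the libraries together. Msx2 was in 9.63% of mesenchyme cells with Msx1 and 2.30% of those without, but in epithelium in 7.34% against 9.58%. Across pairs, Msx1 was in 56.8% of mesenchyme cells with Dlx2 against 20.8% of cells without it, and Dlx5 was in 52.5% of bone cells with Dlx3 against 27.5%, at median depths of 11624 and 7921 UMIs.

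Facial mesenchyme differs by position, and genes known to mark regions of it were used to place the 8 genes. CPM was summed over the mesenchyme cells with and without at least 1 UMI of each regional gene, within each library. These ratios are descriptions, and a cell without a UMI may still express the gene. Lhx8 and Lhx6, homeobox genes of the oral side of the jaws, marked the cells richest in Dlx1, Dlx2 and Msx1. In Lhx8 cells Msx1 was at 144, 229, 229 and 212 CPM, against 43.2, 49.7, 59.1 and 74.2 CPM in the rest. Dlx1 was at a mean of 12.8 ± 8.4 CPM (SD, 4 libraries) there against 0.941, and Dlx2 at 13.5 ± 7.8 against 1.61 CPM, on 86 and 92 UMIs. Lhx6 cells had Dlx1 at 19.2 ± 8.2 against 1.54 CPM and Dlx2 at 19.2 ± 8.2 against 2.26 CPM. The 2 totals were equal in each library (8, 12, 29 and 3 UMIs) but came from different cells: 33 cells had Dlx1, 40 had Dlx2 and 11 had both, of 339. Barx1, a gene of the molar field, went with Dlx1 (10.2 against 1.11 CPM), Dlx2 (10.8 against 1.83) and Dlx5 (10.97 against 4.77), while Msx2 was lower (3.27 against 8.14).

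Other regional genes went with Msx2, among them Alx1 and Six2, and both of these also went with Dlx5, as Barx1 did. In cells with Alx1, a gene of the frontonasal mesenchyme found in 44.1% to 49.0% of mesenchyme cells, Msx2 was at 10.3 against 5.00 CPM, Dlx5 at 7.10 against 4.20 and Msx1 at 96.2 against 52.4. Dlx1 was lower, at 0.547 against 3.86 CPM, as was Dlx2, at 1.54 against 4.27. Six2 cells had Dlx5 at 12.2 against 4.40 CPM, Dlx6 at 2.13 against 0.813 and Msx2 at 13.6 against 6.43. Cells with Osr2, a palate gene, had Dlx5 at 2.14 against 8.27 CPM and Msx2 at 5.70 against 8.96 CPM. Foxl2 and Pou3f4 marked cells low in Msx1, at 14.7 against 78.5 and 20.8 against 78.0 CPM, and in Msx2, at 2.80 against 7.98 and 2.47 against 7.92 CPM. Each of these differences ran the same way in all 4 libraries.

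**Figure D4:**
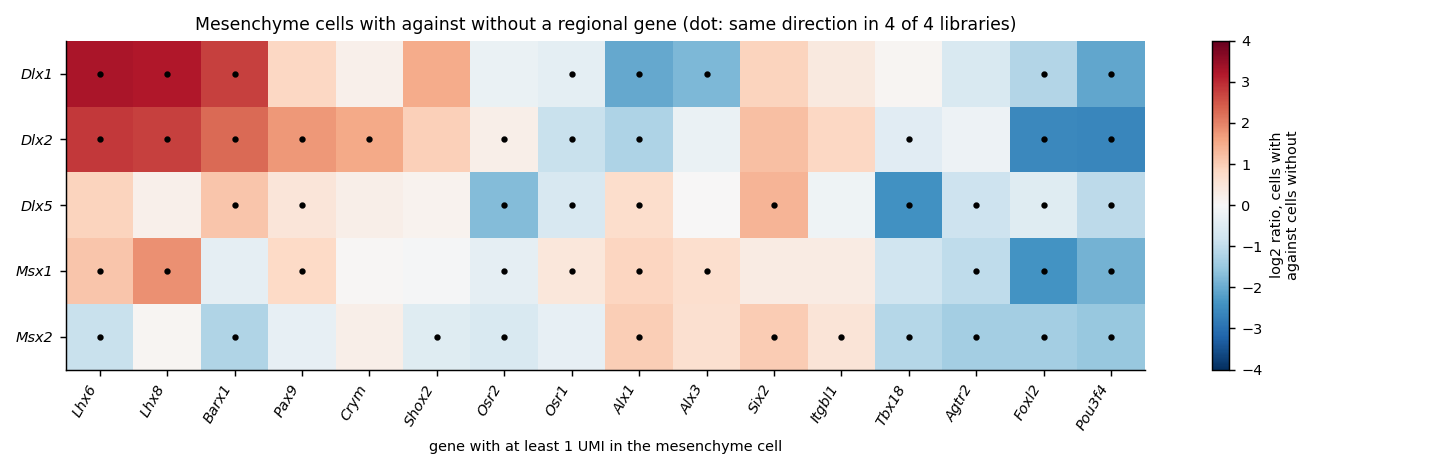
Log2 ratio of mean CPM (plus a pseudocount of 0.5) in mesenchyme cells with against without a UMI of each regional gene, red for higher and blue for lower; a dot marks the same direction in 4 of 4 libraries. Dlx1 and Dlx2 are reddest for Lhx6, Lhx8 and Barx1, whereas Msx2 is higher with Alx1 and Six2 and lower with Barx1.

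The shares of mesenchyme cells with a UMI of some regional genes moved with some of these levels. Cells were not thinned for these shares. Median depth in mesenchyme was 6363.5, 6524, 8138 and 4903.5 UMIs in control 1, control 2, mutant 1 and mutant 2. Cells with Lhx6 made up 1.48%, 4.61%, 9.34% and 1.96% of mesenchyme in control 1, control 2, mutant 1 and mutant 2, and cells with Lhx8 7.55%, 10.6%, 17.4% and 8.17%. The libraries high in Dlx1 and Dlx2, control 2 and mutant 1, are those with most Lhx6 and Lhx8 cells. Cells with Foxl2, low in Msx1, made up 11.8% and 10.4% of control and 4.14% and 7.58% of mutant mesenchyme. Neither the part of depth in these shares nor the part of the shares in the levels of whole mesenchyme was tested.

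Mutant and control libraries were compared to ask whether these genes change where Sox10-cre removes Taz and 1 of 2 Yap alleles. No Dlx or Msx gene was called by edgeR's quasi-likelihood test in any class. In mesenchyme 7 of the 8 were tested (Dlx4 was below the filter on low counts) in a fit that called 2 of 15664 genes, 0.0128%, with 1 (0.00638%) in each direction. These were Vtn, which encodes vitronectin (log2 change -3.34), and Eif3l, of a translation initiation factor (1.05), named after their values were seen, and 1321 genes had an unadjusted p under 0.05, 8.43%. In bone 7 were tested and in epithelium 7 (without Dlx1), and over all cells 8. No gene at all was called in bone, epithelium or all cells, while an unadjusted p under 0.05 was reached by 644 (5.15%), 646 (4.99%) and 883 (4.88%) genes. DESeq2 called 2, 10 and 30. The exact permutation test of 2 against 2 libraries cannot pass a threshold of 0.05 and was not used; its smallest p is 0.33.

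Msx1 was higher in both mutants than in both controls in mesenchyme and bone. In mesenchyme (51.3 and 67.7 against 87.7 and 86.1 CPM) the log2 change was 0.51 ± 0.14 (SE, 2 against 2 libraries), with an edgeR adjusted p of 0.422 and an unadjusted p of 0.0066. In bone (124 and 106 against 191 and 148 CPM) it was 0.48 ± 0.15, with an adjusted p of 0.928 and an unadjusted p of 0.00996. Of all genes tested, 25.9% in mesenchyme and 25.1% in bone were likewise higher in both mutants, so this order is common. The mesenchyme value depends on the control libraries: without control 2 the change was 0.73 with an adjusted p of 0.00516, and without control 1 it was 0.32 with an adjusted p of 0.109. In bone the change fell to 0.30 without mutant 1. In mesenchyme with no filter on low counts, a fit that called 584 genes, the change of Msx1 was 0.52 with an edgeR adjusted p of 0.00129. Among mesenchyme cells without a given regional gene, both mutants were above both controls for Msx1 for 17 of 17 such genes, and among cells with the gene for 8 of 17. The sets of cells without a gene are largely the same cells each time, so that the 17 are not separate observations. For example, Alx1 cells had Msx1 at 73.5 and 79.2 CPM in control and 115 and 117 CPM in mutant libraries. In Lhx8 cells control and mutant values overlapped.

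Msx2 ran the opposite way. Control bone had 19.4 and 27.5 CPM and mutant bone 14.9 and 14.5 CPM, a log2 change of -0.68 ± 0.23 (edgeR adjusted p = 0.928, unadjusted 0.0142). Of all genes tested in bone, 11.1% were lower in both mutants. In mesenchyme the groups overlapped (6.88 and 10.4 against 5.13 and 7.74 CPM), with a log2 change of -0.45 ± 0.27 (edgeR adjusted p = 0.691). In epithelium it was at -0.53 ± 0.32 (edgeR adjusted p = 0.914), with both mutants, at 10.2 and 10.2 CPM, below both controls, at 11.5 and 19.9 CPM. Of all genes tested in epithelium, 15.7% were likewise lower in both mutants. Over all cells Msx1 was at 52.3 and 61.3 against 82.4 and 77.7 CPM (log2 change 0.46 ± 0.11), and Msx2 at 10.7 and 12.9 against 7.59 and 8.71 CPM (-0.57 ± 0.16), both with an edgeR adjusted p of 0.909, where 24.9% of genes were higher and 13.0% lower in both mutants.

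Dlx5 had 68.7 and 73.1 CPM in control bone and 39.4 and 71.8 CPM in mutant bone, so that the groups overlapped (log2 change -0.42 ± 0.24, edgeR adjusted p = 0.961). Dlx6 had 14.8 and 21.4 CPM in control bone and 10.6 and 13.4 CPM in mutant bone, a log2 change of -0.60 ± 0.26 (edgeR adjusted p = 0.961). In mesenchyme both were lower in the mutants without passing the test, Dlx5 at 7.19 and 5.34 against 4.45 and 5.30 CPM (-0.41 ± 0.23, 0.672) and Dlx6 at 1.52 and 0.99 against 0.68 and 0.86 CPM (-0.76 ± 0.43, 0.678). Of all mesenchyme genes 15.3% were lower in both. In epithelium the same pair was higher in the mutants, again short of the threshold, Dlx5 at 30.4 and 19.9 against 32.3 and 39.1 CPM (0.38 ± 0.21, 0.914) and Dlx6 at 4.03 and 2.74 against 4.86 and 7.99 CPM (0.77 ± 0.44, 0.914), where 22.7% of genes were higher in both. Dlx3 in epithelium was lower in both mutants, at 14.1 and 22.0 against 8.40 and 13.2 CPM (-0.69 ± 0.33, 0.914), where 15.7% of genes were lower in both. None of these passed the threshold, and several hang on 1 library. Dlx5 in bone was at -0.03 without mutant 1 and -0.92 without mutant 2. With each library left out in turn, Msx2 ranged from -0.77 to -0.14 in mesenchyme, where it was nearest 0 without control 2 or mutant 1, from -0.98 to -0.46 in bone and from -1.03 to -0.20 in epithelium, in both of which the ends are without control 1 and without control 2. Dlx5 ranged from -0.60 to -0.17 in mesenchyme and from 0.21 to 0.77 in epithelium, where control 1 and control 2 again gave the ends. Dlx6 ranged from -1.02 (without control 2) to -0.40 (without control 1) in mesenchyme, from -0.91 (without control 1) to -0.37 (without control 2) in bone and from 0.42 (without mutant 2) to 1.13 (without control 1) in epithelium. Dlx3 in epithelium ranged from -1.10 (without control 1) to -0.42 (without mutant 1). No sign changed.

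**Figure D5:**
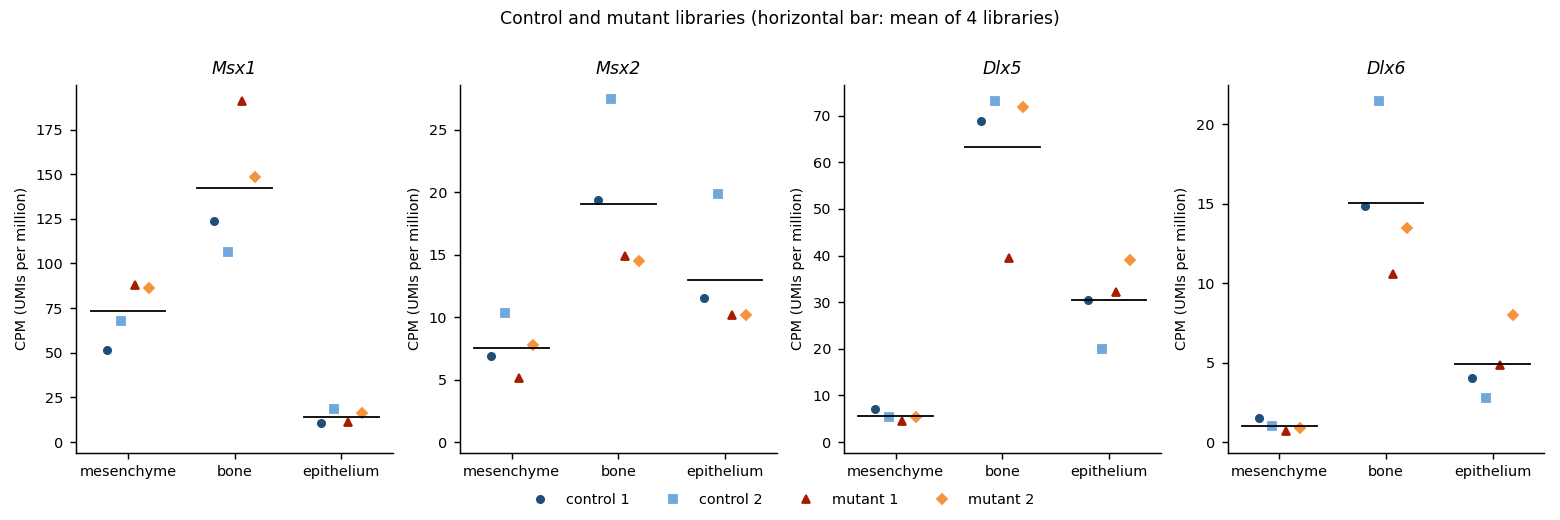
Level (CPM, linear axis) of Msx1, Msx2, Dlx5 and Dlx6 in each control and mutant library in mesenchyme, bone and epithelium, with the mean of 4 libraries as a bar. Msx1 in bone lies between 106 and 124 CPM in control and between 148 and 191 CPM in mutant libraries, without passing the test across all genes.

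The difference between classes in these changes was tested as an interaction. No gene was called for epithelium against mesenchyme (960 of 15945, 6.02%, had an unadjusted p under 0.05) or for bone against mesenchyme (702 of 15024, 4.67%). The change of Dlx5 was 0.87 ± 0.26 higher in epithelium than in mesenchyme on the log2 scale (edgeR adjusted p = 0.662, unadjusted 0.00702). For Dlx6 it was 1.61 ± 0.67 (adjusted 0.809) and for Msx1 -0.52 ± 0.26 (adjusted 0.863). In bone against mesenchyme the Msx1 and Msx2 changes differed by -0.07 ± 0.17 and -0.27 ± 0.27 (edgeR adjusted p = 1 for both).

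The BMP pathway is the best known input of Msx genes. Of 19 of its genes, 7 were called higher in bone than in mesenchyme and 4 lower, where 12.3% of all genes were called higher and 11.5% lower, with a median log2 difference of 0.03 against -0.0028 over all genes. Bmp5, a ligand, differed by 1.26 ± 0.082 (edgeR adjusted p = 2.39e-07), Bambi, a decoy receptor, by 0.93 ± 0.090 and Nog, a secreted BMP antagonist, by 1.26 ± 0.17, whereas Id4, a BMP target, was lower by -0.73 ± 0.097. In epithelium 4 of the 19 were called higher than in mesenchyme and 9 lower, where 30.4% of all genes were called higher and 31.2% lower. The median was -0.22 against -0.0096 over all genes. Whether these counts differ from the shares of all genes was not tested, and nothing particular to the pathway is read from them. Bmpr1b, a receptor (2.35 ± 0.098), and Id1, a target (1.63 ± 0.068), were higher in epithelium, and Bmp4 (-2.95 ± 0.14) and the antagonist Grem1 (-4.67 ± 0.37) were lower. Between mutant and control none of the 19 was called in any class. In mesenchyme Grem1 had the smallest p, with 11.7 and 11.4 CPM in control and 5.68 and 7.02 CPM in mutant libraries (-0.90 ± 0.17, edgeR adjusted p = 0.261).

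Among 12 tested genes of endothelin signalling and jaw patterning, around Dlx5 and Dlx6, 4 were called higher in bone than in mesenchyme and 6 lower, against the same 12.3% and 11.5% of all genes. The nuclear receptors Nr2f1 and Nr2f2 and the endothelin receptor Ednra were lower, at -1.47 ± 0.065, -1.92 ± 0.12 and -0.67 ± 0.058 (edgeR adjusted p = 8e-09, 1.77e-07 and 2.99e-06). In epithelium 3 of the 12 were called higher and 9 lower, against 30.4% and 31.2% of all genes. The 13 tested homeobox and paired-box factors of the face had 7 called higher and 4 lower in bone, and 3 higher and 10 lower in epithelium, beside those same shares of all genes. Prrx1, also a gate marker of mesenchyme, and Alx1 were the lowest in epithelium, at -9.22 ± 0.13 and -8.13 ± 0.21 (edgeR adjusted p = 4.62e-11 and 6.38e-10). Of the epidermal programme 11 of 12 genes were called higher in epithelium, with Krt1 at 6.26 ± 0.11 and Ovol1 at 8.999 ± 0.24. Of the olfactory programme 9 of 10 tested genes were called higher, with Sox2 at 5.03 ± 0.12, and 1 was called lower. Of all genes, 30.4% were called higher and 31.2% lower. Emx2 of the olfactory programme was at 29.5 to 52.1 CPM in mesenchyme and at 0.686 to 3.84 CPM in epithelium. Several genes of both programmes, Krt1, Sox2 and Emx2 among them, also served to divide epithelium into types. No gene of these lists was called between mutant and control in mesenchyme, bone, epithelium or all cells.

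Genes whose level was most like that of each member were sought over 52 sums (13 classes in 4 libraries, Pearson r of log2 CPM plus 1). These r describe class patterns and are not tests, since sums of a library share depth and free RNA. Dlx1 and Dlx2 had each other as the nearest gene (r = 0.839), and Dlx5 and Dlx6 both had Dlx6os1 (0.845 and 0.850). Dlx6 was at 0.799 with Dlx5. Dlx3 was nearest to Wnt10b (0.836), a Wnt ligand of skin appendages, at a mean of 23.6 CPM in basal keratinocytes, 4.76 CPM in osteoblasts and 0.18 CPM in mesenchyme, followed by Ovol2 (0.824) and Adamts18 (0.813). Msx1 was nearest to Eln, which encodes elastin (0.871), Rspo1 (0.871), an enhancer of Wnt signalling, and Sfrp2 (0.858), a secreted Wnt modulator. Msx2 was nearest to Pdcd4 (0.866), Penk (0.844) and Cpxm2 (0.840). Msx1 and Msx2 were at 0.588 with each other.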

How the data were processed

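The authors deposited 1 matrix per library of raw UMI counts per gene and cell barcode, made with Cell Ranger 8.0.1 per the file headers, whereas the submitters' processing notes name Cell Ranger 4 and Seurat 4.3.0 with mm10. The labels' protocols name 2 sequencing providers but do not tie a library to either, so a batch could not be tested, and a further sample that they mention was not analysed here.

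Kept cells had 500 or more genes and no more than 10% of UMIs from mitochondrial genes. Total UMIs of kept cells were 35331450, 19767873, 29121739 and 26874057 for control 1, control 2, mutant 1 and mutant 2. Cells were gated by markers with at least 1 UMI: mesenchyme by 4 markers, cartilage 3, bone 2 with either Sp7, Ibsp or both Runx2 and Alpl, epithelium and neuron 4, and other classes 3. Cells passing both the epithelium and neuron gates, and no other, were kept as neurons. Mural and muscle cells could also carry mesenchyme markers. Keratinocytes needed 3 markers of their layer, and olfactory or respiratory epithelium 2. Numbers of markers, subdivisions and regional descriptions were set after the data were seen. The automatic threshold of Scrublet (scanpy 1.11.5) marked 0 to 3 cells per library and had not worked, so doublets were kept, and an alternative left out 149, 56, 87 and 163 high-scoring cells.

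For each class of cells, the UMIs of a library were added up, filtered with filterByExpr, scaled by TMM and compared by the quasi-likelihood test of edgeR 4.0.16 in R 4.3.3, with Benjamini-Hochberg adjustment over all genes tested. The same steps were tested on simulated data. An SE was taken as the absolute log2 change over the root of the F statistic. Alternatives were DESeq2 1.42.0, its size factors, leaving out the filter on low counts, cells of at least 1000 genes and at most 5% mitochondrial UMIs (stricter cells), a replicate block, 1 more marker, doublets left out, controls alone and each library left out. Every member was named, with up to 4 genes of each pathway list by smallest p and the 3 most alike genes (of at least 10 CPM in a class, gate markers left out) for members with a mean of 5 CPM in a class, a level Dlx4 did not reach. Intervals are exact binomial and cover counting error only. Members and lists were chosen with earlier results of these data known. Sequences are from RefSeq. Some genes are not reported here.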

Additional observations from a re-analysis of the deposited data

How the results depend on the processing

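The differences between classes held under most alternatives: of 175 recomputed member values 164 kept direction and side of the threshold, 9 lost the call and 2 changed sign. Of 152 values for mutant against control 150 did so and 2 became calls, both for Msx1 in mesenchyme. The sign changed for Dlx1 in epithelium against mesenchyme, to 0.18 without control 2 and 0.31 without mutant 1 (range over libraries left out -0.47 to 0.31). It also changed for the interaction of bone against mesenchyme, for Msx1 to 0.29 without control 1 and 0.06 without mutant 2 (-0.34 to 0.29), and for Msx2 to 0.029 without mutant 2 (-0.55 to 0.029). The cause was not tested.

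Numbers of genes called between mutant and control moved widely. In mesenchyme 2 became 60 with DESeq2, 584 with no filter on low counts, and 0 with stricter cells or 1 more marker. In bone 0 became 2 with DESeq2 and 129 with no filter, in epithelium 10 and 308, and over all cells 30 and 10. Leaving out 1 library gave 20 to 782 genes in mesenchyme, 1 to 172 in bone, 1 to 693 in epithelium and 0 to 410 over all cells. Bone against mesenchyme had 3578 calls, 2242 with DESeq2, 2264 in the controls alone and 2330 to 3630 with a library left out, and epithelium against mesenchyme 9810, 6303 in the controls alone and 7983 to 10145. Interactions, at 0, became 100 for bone and 219 for epithelium with no filter, and 0 to 208 and 1 to 245 with a library left out.

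The titles number the libraries of each group. Over genes, the deviations of same-numbered libraries from their group means were barely correlated (r of -0.01 in mesenchyme, 0.02 in bone, 0.08 in epithelium and -0.03 over all cells). With so few libraries these r cannot show whether same-numbered libraries shared a litter or a batch, and the labels do not say. With a replicate block the calls were 16 in mesenchyme, 135 in bone, 1 in epithelium and 0 over all cells. Levels of a few CPM, as for Dlx1, Dlx2 and Dlx4, rest on 94 to 460 UMIs over all cells, which limits what change could be seen.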

Other observations

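Glia that held Dlx1 or Dlx2 differed from the other glia in Fabp7. Of 106 glia, 25 had a UMI of either gene, between 5 and 8 in each library. Fabp7, a lipid-binding protein high in olfactory ensheathing glia, was at 1030 CPM in these cells and at 13987 CPM in the other 81. It was lower in them in each library, at 1048, 1375, 829 and 782 CPM against 17373, 2490, 17012 and 7696 CPM, in the order control 1, control 2, mutant 1 and mutant 2. Sox10, a transcription factor of all these glia, was at 401 against 280 CPM. Median depths were 8214 and 8782 UMIs. These genes are markers of the glial gate, and the division by Dlx UMIs was chosen after the levels had been seen, so the values are a description.

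Neurons that held Dlx5 or Dlx6 had more of the progenitor gene Sox2 over the libraries together. Of 111 cells gated as neurons, 60 had a UMI of either gene. Sox2 was at 231 against 71.7 CPM. Neurod1 and Stmn2, of differentiating neurons, were lower, at 28.4 against 134 CPM and 984 against 2042 CPM. Sox2 had no UMI in the 10 neurons of control 2, where Neurod1 was the other way, at 80.6 against 0 CPM. Stmn2 and Neurod1 are markers of the neuron gate, and this division too was chosen after the levels had been seen. The class also held epithelial markers, and cells that passed both the epithelium and the neuron gate were counted in it. The cells with Dlx5 or Dlx6 were deeper, at a median of 10090 against 6249 UMIs, and the part of depth in this division was not tested.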
